A study of Mus musculus with 15 samples.

Results

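The sirtuins are a family of 7 enzymes, Sirt1 to Sirt7, and their RNA levels are described here in 5 mouse tissues under 3 feeding regimens. Members were taken by symbol: a locus belonged to the family when its gene name, split at commas, was 1 of the 7 symbols, which gave 7 of the 23589 loci that carry a gene name. Sirtuins remove acetyl and other acyl groups from lysine side chains and use NAD+ as a co-substrate, so that their activity depends on how much NAD+ a cell can make. Sirt1, Sirt6 and Sirt7 work mainly in the nucleus, Sirt2 mainly in the cytosol, and Sirt3, Sirt4 and Sirt5 in mitochondria. The family is best known in liver and fat for its part in the switch between fed and fasted metabolism, and it has long been studied in dietary restriction.

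The study sequenced RNA depleted of ribosomal RNA from 5 tissues of male C57BL/6 mice, namely hypothalamus, hippocampus, liver, colon and epididymal fat. AL mice ate freely and were 5 months old. DR mice, also 5 months old, had received 60% of the AL food intake (40% restriction) for 1 month from 4 months of age, and DR-AL mice had the same month of restriction followed by 2 months of free feeding, which made them 7 months old. Each tissue and diet is represented by 1 library of RNA pooled from 5 mice, 15 libraries in all, so that no diet has a replicate within a tissue, and age and refeeding cannot be told apart in any comparison of DR-AL with AL or DR. The colon samples were intestinal mucosa, which the paper describes as made up mainly of epithelial cells. Every tissue holds several cell types, so that fewer cells of a type and less RNA per cell cannot be told apart.

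In the GENCODE M21 annotation of the GRCm38 build, Sirt1 lies on chromosome 10 from 63319005 to 63381704 on the minus strand, and Sirt6 shares that chromosome (81621785 to 81627797, minus strand). Sirt2 (28766735 to 28788661, plus strand) and Sirt3 (140863666 to 140882309, minus strand) are both on chromosome 7. Sirt4 lies on chromosome 5 from 115478010 to 115484725 on the minus strand, and Sirt5 on chromosome 13 from 43365496 to 43395203 on the plus strand. Sirt7 lies on chromosome 11 from 120618372 to 120625240 on the minus strand, where its upstream end overlaps Mafg (120625117 to 120633600, minus strand), a small Maf transcription factor, by 124 bp. The deposited table gives Sirt7 and Mafg 1 merged locus, so their reads cannot be told apart, and every value below for the Sirt7 locus is the sum of both genes.

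The 250 bases before the RefSeq start sites (GRCm38.p6) set Sirt1 apart within the family in base composition. The Sirt1 window held 39 CG dinucleotides, more than 98.4% of the 32851 start windows in the table, whose median was 6. The other members held between 12 and 21. The canonical E-box CACGTG, a palindrome bound by several helix-loop-helix factors, occurred in the Sirt1 window and in none of the other members, against 6.02% of all windows. The cyclic AMP response element TGACGTCA (1.55% of all windows) and the TATA box TATAAA searched on both strands (12.4% of all windows) occurred in no member. These matches describe letters and no binding was measured. The parts of the Sirt1 and Sirt5 windows that overlap no annotated exon are printed to set the start with the most CG in the family beside one with fewer, with every CG in capitals, and the E-box letters caCGtg occur at 2 places in the Sirt1 stretch. The Sirt1 stretch is chr10:63339051-63339285 on the minus strand (235 bases, 36 CG) and the Sirt5 stretch is chr13:43365285-43365495 on the plus strand (211 bases, 9 CG), both written 5′ to 3′.
Sirt1: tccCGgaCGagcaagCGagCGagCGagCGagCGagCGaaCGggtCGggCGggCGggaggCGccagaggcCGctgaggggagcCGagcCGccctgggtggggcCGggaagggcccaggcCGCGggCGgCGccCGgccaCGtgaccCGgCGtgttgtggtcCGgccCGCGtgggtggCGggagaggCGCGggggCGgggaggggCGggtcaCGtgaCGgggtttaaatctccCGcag
Sirt5: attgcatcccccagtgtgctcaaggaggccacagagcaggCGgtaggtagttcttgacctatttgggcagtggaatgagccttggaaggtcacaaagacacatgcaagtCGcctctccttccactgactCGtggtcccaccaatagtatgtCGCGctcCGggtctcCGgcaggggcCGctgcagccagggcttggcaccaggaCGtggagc

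Libraries held 21767088 to 40500130 counts on named loci (median 26554699), of which the 10 most abundant genes took 3.05% to 13.95%. Levels below are counts scaled to a total of 1000000 on named loci (CPM) when libraries are compared. Liver markers summed to between 53060 and 65580 CPM in the liver libraries, although albumin (Alb) was listed at 0 in all 15 libraries, and 7 of the 8 markers were above 3 counts. In fat the same 7 liver markers were above 3 counts too and summed to 13430 CPM in AL, 5295 with DR and 4111 with DR-AL, of which Cyp2e1, a gene that fat also expresses, took most, while Apoa1 went from 32008 counts to 262 and 81. The 7 adipocyte markers, all present, summed to 39050, 32470 and 26540 CPM. Testis germ cell markers above 3 counts numbered 4 of 7 in AL fat and 7 of 7 in the other fat libraries, and summed to 3.55 CPM, 575 and 2942 in the order AL, DR and DR-AL. Epididymis markers (6, 8 and 7 of 8, with Lcn9 at 0 in AL and DR-AL) summed to 1046, 3755 and 6337 CPM. The part of these other cell types in the fat values of the sirtuins was not tested, and totals are given with and without fat. All 8 markers of colon epithelium were present in colon and all 8 of hypothalamus in that region. Telencephalic neuron markers summed to 13.7 CPM in AL, 61.5 with DR and 48.0 with DR-AL in hypothalamus, against at least 1724 in hippocampus. The part of those neurons in the hypothalamus values of the sirtuins was not tested.

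Each sirtuin differed in level among the 5 tissues. By mean level, Sirt3 and Sirt5 were highest in liver, Sirt2 and Sirt4 in hypothalamus, and Sirt6 was lowest in liver, with either scaling used below. Some of these leads were within the spread, as given with the members below. The tissue term of an edgeR quasi-likelihood fit to all 15 libraries, in which the 3 diets of a tissue serve as its replicates, passed an adjusted p of 0.05 for 7 of 7 members, as it did for 97.1% of the 17476 genes tested, so that a difference among tissues is the rule for genes here. Adjusted p ran from 8.56e-09 for Sirt3 to 4.05e-04 for Sirt1. Between pairs of tissues, 48 of the 70 member values were called. The order of tissues depended on the scaling for several members, because the trimmed-mean (TMM) factor that corrects each library for its most abundant transcripts was 0.552 to 0.583 in liver and above 1 in hippocampus, fat and hypothalamus. With library totals in place of these factors, 43 of the 70 values were called, 30 were called with the same sign under both, and 8 of the 70 changed sign, 5 of them in pairs with liver.

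**Figure D1:**
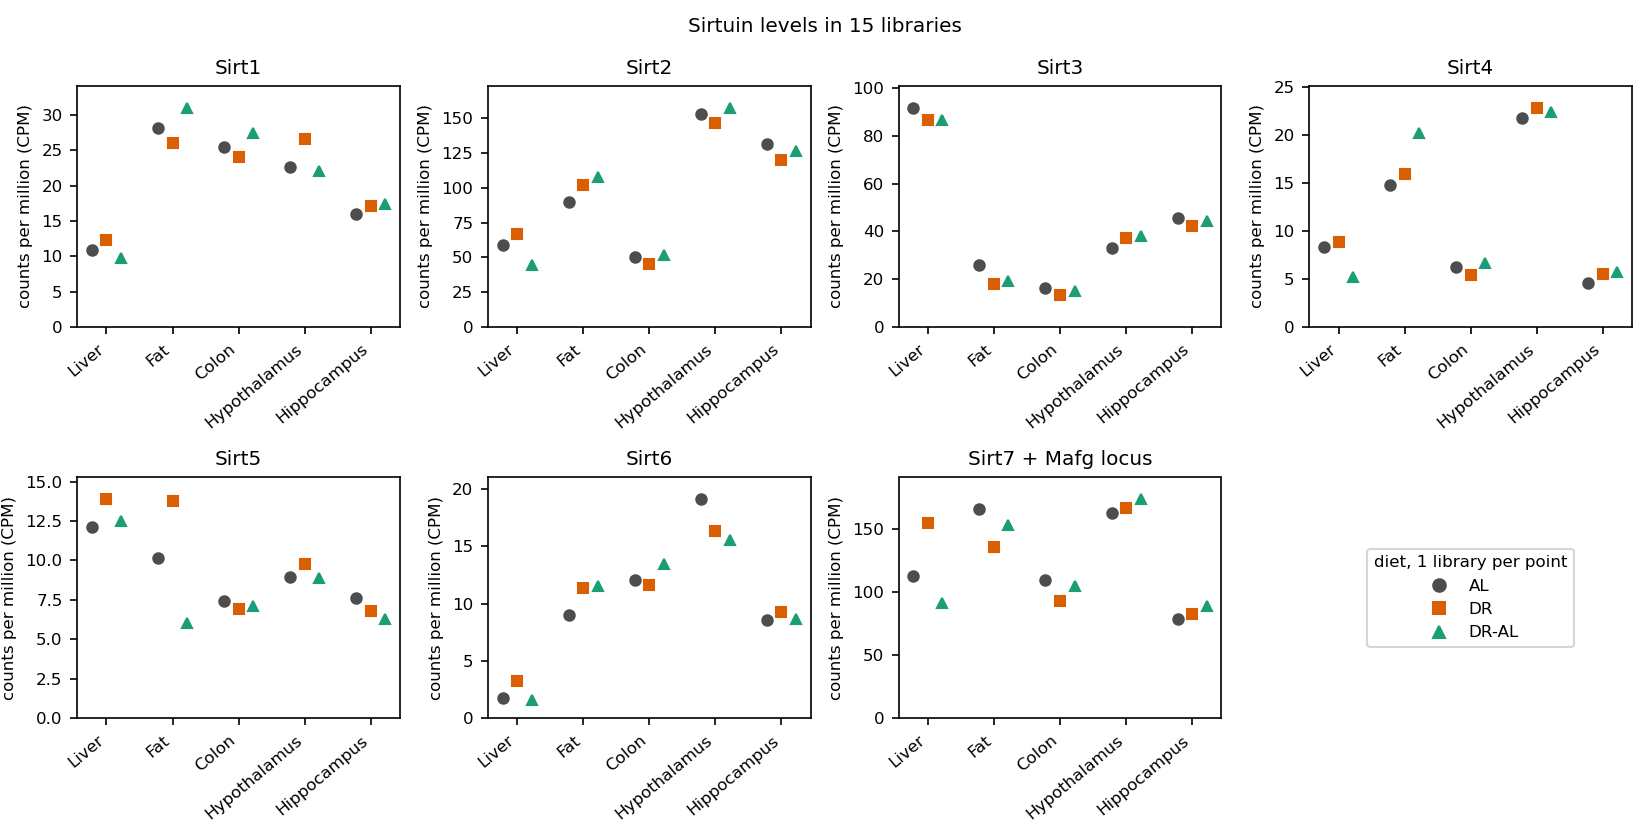
Level of each sirtuin, in CPM, in the 15 libraries. Each point is 1 library of pooled RNA, with colours for AL, DR and DR-AL. Sirt3 lies between 86.5 and 91.7 CPM in liver and below 46 in the other tissues, and Sirt6 lies below 3.3 CPM in liver.

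Sirt1, the nuclear deacetylase of p53, FOXO factors and PGC-1α, averaged 28.4 ± 2.52 CPM in fat (SD, n = 3 libraries, as for all means below), 25.6 ± 1.72 in colon, 23.8 ± 2.44 in hypothalamus, 16.8 ± 0.769 in hippocampus and 10.96 ± 1.30 in liver. In the TMM-scaled fit the order was colon, fat, liver, hypothalamus and hippocampus, and no pair of neighbours in it differed beyond the spread. Colon exceeded hippocampus by 0.87 ± 0.13 on the log2 scale (± SE, adjusted p = 7.35e-05). Liver lay above hippocampus by 0.37 ± 0.13 (adjusted p = 0.0211) in this fit but below it by 0.62 with library totals. Sirt6, a deacetylase of histone H3 that maintains chromatin and restrains glycolytic genes, averaged 17.0 ± 1.87 CPM in hypothalamus, 12.3 ± 0.963 in colon, 10.6 ± 1.38 in fat, 8.82 ± 0.382 in hippocampus and 2.21 ± 0.915 in liver. Liver was lower than each of the other tissues in the edgeR fit, by between 1.04 and 1.79 on the log2 scale, and it stood lowest under both scalings. Hypothalamus and colon did not differ beyond the spread for Sirt6 (adjusted p = 0.837). The Sirt7 locus, named for a nucleolar sirtuin that acts on rRNA transcription, averaged 168 ± 5.61 CPM in hypothalamus, 152 ± 14.95 in fat, 119 ± 32.2 in liver, 103 ± 8.32 in colon and 83.7 ± 4.93 in hippocampus. The liver mean was above that of hypothalamus by 0.73 ± 0.18 on the TMM scale (adjusted p = 0.00334) and below it by 0.49 with library totals. Hippocampus was lowest under both.

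Sirt2, the cytosolic tubulin deacetylase that is abundant in myelinating cells, averaged 152 ± 5.63 CPM in hypothalamus, 126 ± 5.67 in hippocampus, 99.8 ± 8.90 in fat, 56.8 ± 11.1 in liver and 49.0 ± 3.45 in colon. The brain regions did not differ from each other beyond the spread (0.03 ± 0.13, adjusted p = 0.885), and both exceeded colon by more than 1 on the log2 scale. Liver did not differ beyond the spread from hypothalamus (-0.20 ± 0.13, adjusted p = 0.18) or hippocampus (-0.17 ± 0.13, adjusted p = 0.259) in this fit. With library totals liver was called lower than both (-1.43 and -1.15). Liver was above fat by 0.35 ± 0.13 on the TMM scale (adjusted p = 0.0297) and below it by 0.82 with library totals. Oligodendrocyte markers, 5 of 5 present, summed to between 3517 and 5433 CPM in the brain libraries, and their relation to the Sirt2 level was not tested.

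Sirt3, the main deacetylase of the mitochondrial matrix, averaged 88.3 ± 2.94 CPM in liver, 44.0 ± 1.82 in hippocampus, 36.1 ± 2.59 in hypothalamus, 21.0 ± 4.16 in fat and 14.9 ± 1.38 in colon. Liver exceeded hippocampus by 1.99 ± 0.16 on the log2 scale (adjusted p = 4.98e-07) and colon by 3.30 ± 0.17 (adjusted p = 3.55e-08). Fat and colon did not differ beyond the spread (adjusted p = 0.737). Sirt4, a mitochondrial sirtuin with lipoamidase and ADP-ribosyltransferase activity that restrains glutamate dehydrogenase and pyruvate dehydrogenase, averaged 22.4 ± 0.559 CPM in hypothalamus, 17.0 ± 2.88 in fat, 7.43 ± 1.96 in liver, 6.15 ± 0.643 in colon and 5.29 ± 0.615 in hippocampus. The brain regions lay at opposite ends of this order, with hypothalamus above hippocampus by 1.84 ± 0.20 on the log2 scale (adjusted p = 1.20e-04). No hypothalamus library was below 21.7 CPM and no hippocampus library above 5.76. Fat (-0.34 ± 0.20, adjusted p = 0.14) and liver (-0.36 ± 0.20, adjusted p = 0.12) did not differ from hypothalamus beyond the spread in the edgeR fit. With library totals the liver difference was called (-1.59) and the fat difference was not (-0.40). Sirt5, the mitochondrial desuccinylase and demalonylase, averaged 12.8 ± 0.934 CPM in liver, 9.99 ± 3.84 in fat, 9.20 ± 0.494 in hypothalamus, 7.16 ± 0.243 in colon and 6.93 ± 0.674 in hippocampus. Liver was above each other tissue in the edgeR fit, by 1.55 ± 0.24 over fat to 1.88 ± 0.24 over hippocampus, and no other pair differed beyond the spread. With library totals its excess over fat was 0.39 and over hypothalamus 0.48, and neither was called.

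**Figure D2:**
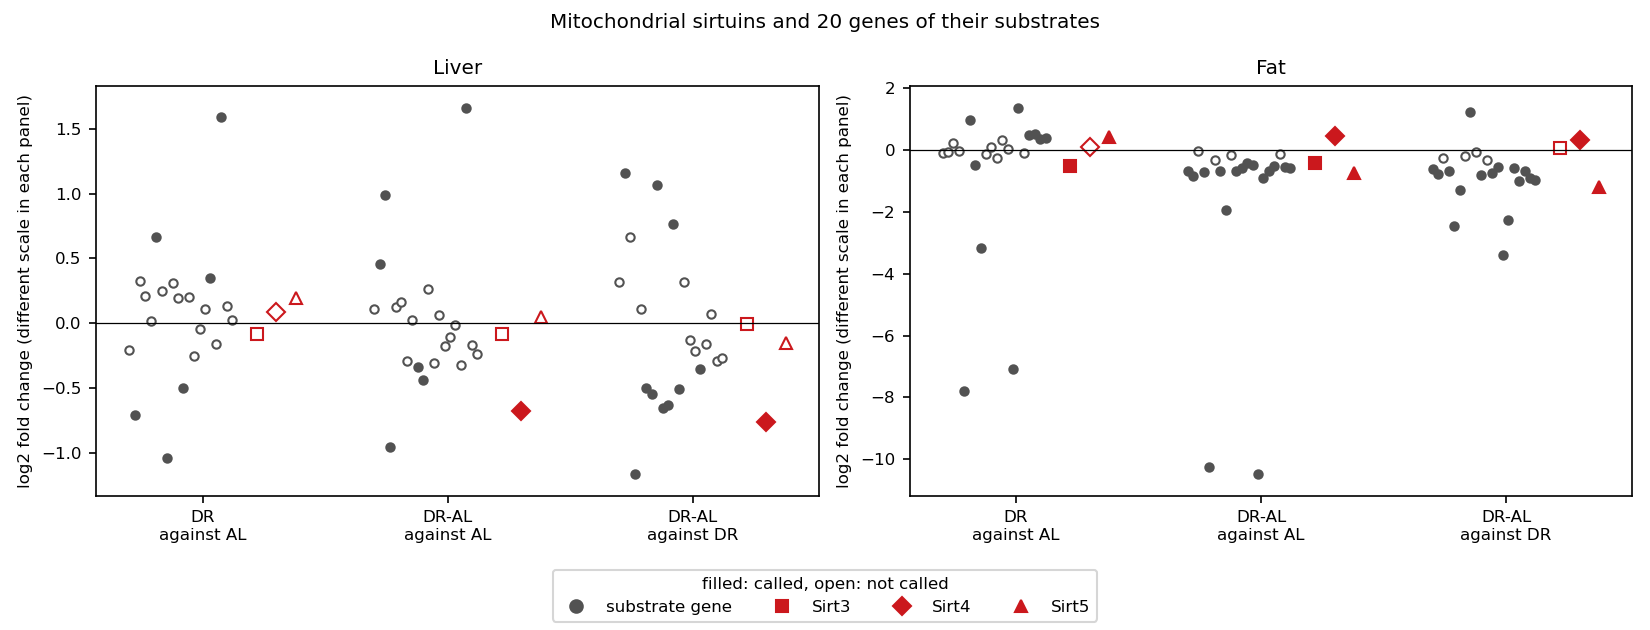
log2 ratio of counts between 2 diets for Sirt3, Sirt4 and Sirt5 and for 20 genes of mitochondrial proteins they act on, in liver and fat. Each point is 1 gene in 1 comparison, filled where called between diets and open where not. The panels have different scales.

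Read pair by pair, the calls among the 7 members stood beside large shares of all genes. Liver against colon called 7 of 7 members (64.0% of all genes tested), liver against hippocampus 6 (76.9%), liver against fat 5 (70.2%) and liver against hypothalamus 4 (77.8%). Colon against hippocampus called 6 members (76.5% of genes), colon against hypothalamus 4 (77.1%), fat against hippocampus 5 (74.1%), fat against hypothalamus 4 (71.0%) and fat against colon 3 (70.7%). Hypothalamus against hippocampus called 4 members where 30.7% of genes were called, with Sirt4, Sirt6 and the Sirt7 locus higher in hypothalamus and Sirt3 higher in hippocampus. The Sirt3 call between these regions, 0.52 ± 0.15 lower in hypothalamus on the log2 scale (adjusted p = 0.0249), was not reached with library totals.

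Which sirtuin led a tissue was read from the deposited FPKM, which the authors normalised for transcript length, and only within a tissue. In liver Sirt3 led with a mean of 128 FPKM (117.5 to 134.7 over the 3 libraries), above 92.7% of the genes detected there. The Sirt7 locus (62.1 FPKM) and Sirt2 (58.8) followed, then Sirt5 (21.7), Sirt4 (13.3), Sirt1 (6.89) and Sirt6 (2.43). Liver was thus led by a mitochondrial member, and 2 nuclear members came last. Sirt2 led in hippocampus (50.8 FPKM) before Sirt3 (25.4), in hypothalamus (40.1 FPKM) and in fat (21.4 FPKM). In colon the Sirt7 locus led with 45.3 FPKM before Sirt2 with 29.3. The FPKM of a fat library cannot be set against another, since their sum over named loci fell from 387366 in AL to 233808 with DR and 128586 with DR-AL, and how the authors scaled them is not given in the sources used here.

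**Figure D3:**
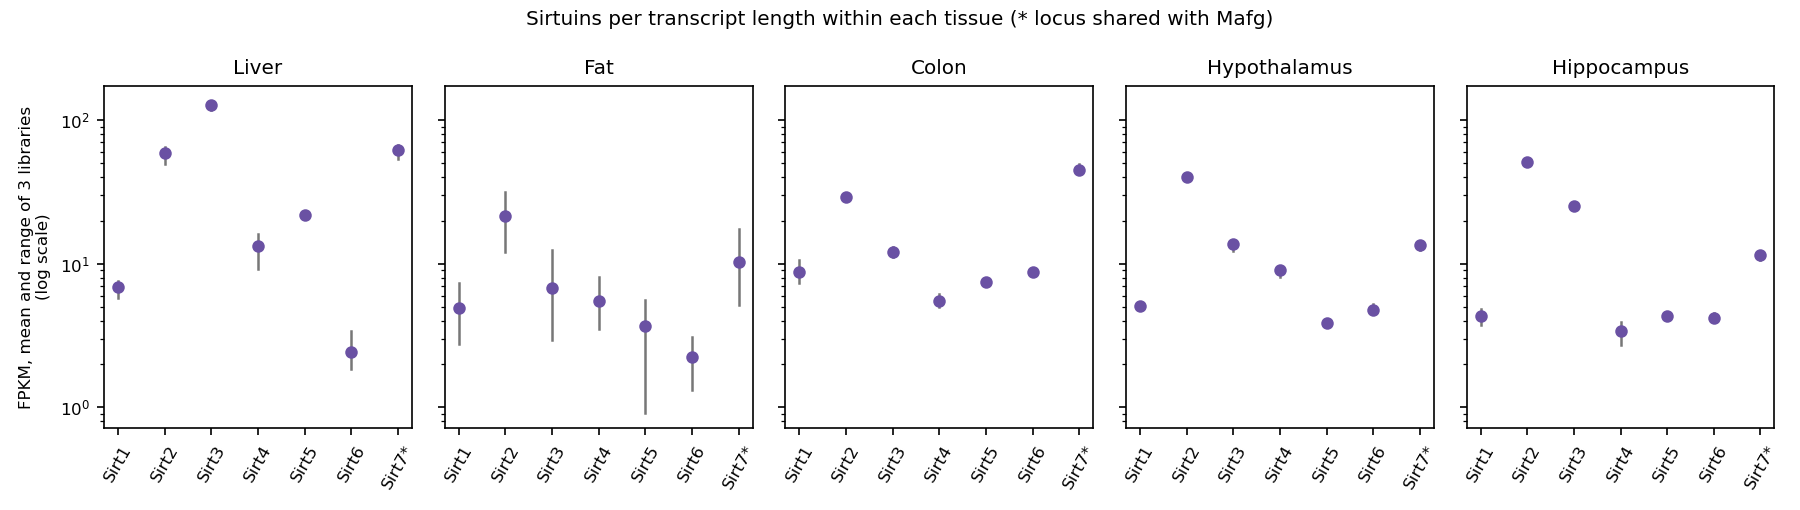
Level of each sirtuin per transcript length, in the deposited FPKM on a log axis, by tissue. Points are means of the 3 libraries of a tissue and lines their range. Sirt3 is highest in liver, Sirt2 in fat, hypothalamus and hippocampus, and the Sirt7 locus in colon.

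Diets were compared within a tissue by the pairwise Z test of the study's methods on counts, with a call at an adjusted p under 0.05 and a log2 ratio of at least 0.32 in size. Since each side is 1 library, a call says that 2 libraries differed by more than counting error, not that diets did, and the 95% intervals (exact, Clopper-Pearson) cover counting error only. Of the 35 values of 7 members in 5 tissues, 5 were called between DR and AL (4 higher in DR), 6 between DR-AL and AL (2 higher in DR-AL) and 7 between DR-AL and DR (1 higher in DR-AL). Over all genes in the same 5 tissues, 21.1%, 25.3% and 24.5% of values were called, each a larger share than among the members. With DESeq size factors the higher and lower calls were 2 and 2, 0 and 5, and 0 and 5 in the same order, and with TMM factors 2 and 3, 0 and 6, and 0 and 5. Every call was in liver or fat under these 3 scalings. Without fat, 2, 2 and 5 of 28 values were called, against 14.3%, 16.3% and 17.0% of all genes in those 4 tissues. The comparisons share libraries in pairs, so that a high or low library appears in 2 of them.

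**Figure D4:**
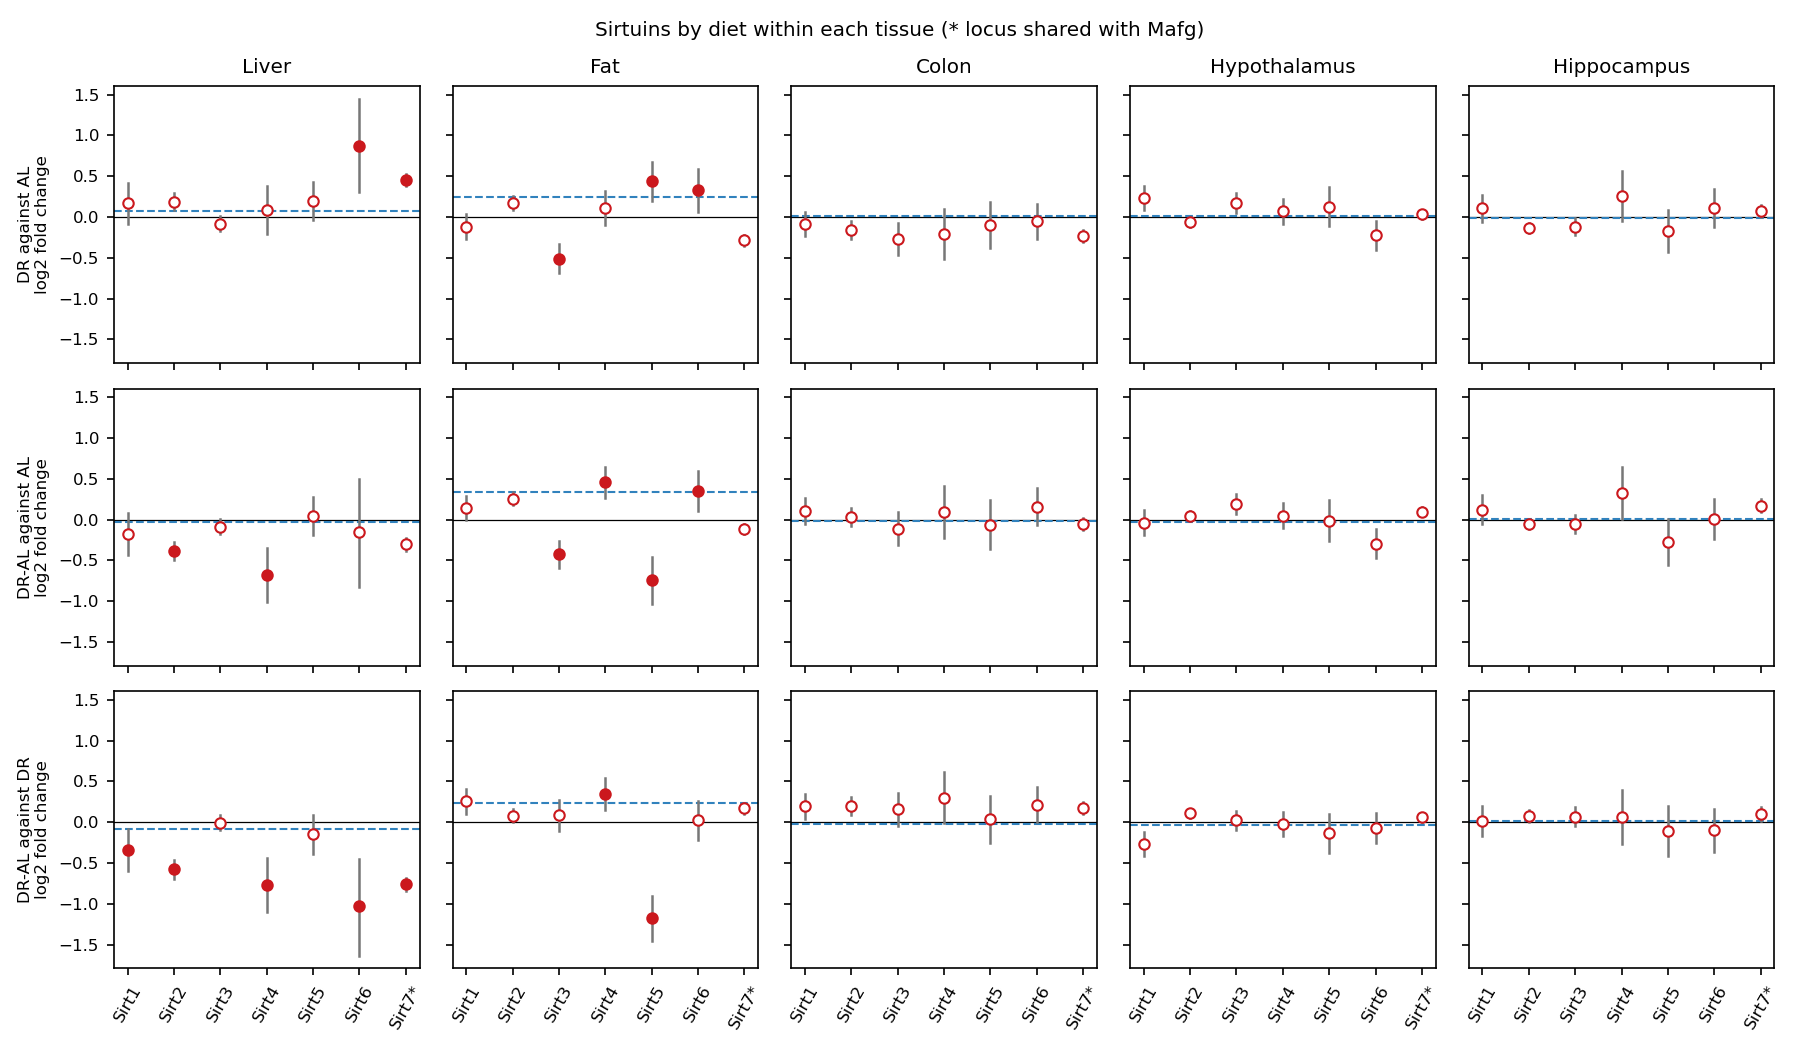
log2 ratio of counts between 2 diets for each sirtuin in each tissue, scaled to equal totals of named loci, with exact 95% intervals for counting error. Filled points are called. The called values are all in liver and fat, from -1.18 (Sirt5 in fat, DR-AL against DR) to 0.87 (Sirt6 in liver, DR against AL).

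In liver, the Sirt7 locus and Sirt6 were higher in the DR library than in AL, and 5 of the 7 sirtuins were lower in DR-AL than in DR. The Sirt7 locus stood at 112.5 CPM in AL, 154.5 with DR and 91.2 with DR-AL (2782, 3363 and 2233 counts). It was higher in DR than in AL by 0.46 on the log2 scale (95% interval 0.39 to 0.53) and lower in DR-AL than in DR by 0.76 (-0.84 to -0.68). The rise was absent from the deposited FPKM, where the locus had 66.7 in AL and 66.3 in DR, a change of -0.0083, and the fall was then 0.31 and was not called. Since the locus holds Mafg as well, which of the genes the difference between counts and FPKM belongs to was not tested. Sirt6 had only 44 counts in AL liver, 71 with DR and 39 with DR-AL (1.78, 3.26 and 1.59 CPM). The DR library exceeded AL by 0.87 (0.31 to 1.45) while DR-AL lay below DR by 1.03 (-1.64 to -0.45), the largest ratios of the family in liver and the least precise. Between AL and DR, 2 of 7 members were called where 28.0% of all genes were.

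Sirt2 in liver stood at 58.6 CPM in AL, 66.8 with DR and 44.8 with DR-AL (1449, 1455 and 1098 counts). It was lower in DR-AL than in AL by 0.39 on the log2 scale (-0.50 to -0.27) and lower than in DR by 0.58 (-0.69 to -0.46). Sirt4 stood at 8.29, 8.82 and 5.19 CPM (205, 192 and 127 counts), with DR-AL below AL by 0.67 (-1.01 to -0.35) and below DR by 0.76 (-1.10 to -0.44). These were the called members between DR-AL and AL, 2 of 7 against 30.9% of all genes. Sirt1 stood at 10.9, 12.3 and 9.68 CPM (270, 267 and 237 counts), and was called only between DR-AL and DR, at -0.34 (-0.60 to -0.08), a call that was lost with DESeq size factors (-0.23) and TMM factors (-0.23). Sirt3 (91.7, 86.7 and 86.5 CPM) and Sirt5 (12.1, 13.9 and 12.5 CPM) were called in no liver comparison. The Sirt3 ratio between DR-AL and DR was -0.0045 with an interval of -0.09 to 0.09, so that the 2 libraries differed by less than a call requires.

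Between DR-AL and DR in liver, 5 of 7 members were called, all lower in DR-AL, and 40.8% of all genes were called. The median of the 7 members was -0.58, and the median of the 12823 liver genes that averaged 10 counts or more was -0.09. The falls of Sirt2, Sirt4, Sirt6 and the Sirt7 locus were called with DESeq size factors and with TMM factors, at -0.47, -0.66, -0.92 and -0.65 on each. No member was called when the spread was estimated from the 3 libraries of the tissue, where 71 higher and 94 lower of 17408 genes were called. That spread takes the 3 diets as 1 group and so holds any difference between them.

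In fat, Sirt5 showed the widest change of the family, and Sirt3 was lower in both the DR and DR-AL libraries than in AL. Sirt5 stood at 10.2 CPM in AL, 13.8 with DR and 6.07 with DR-AL (266, 314 and 166 counts). It was higher in DR than in AL by 0.44 on the log2 scale (0.20 to 0.68), lower in DR-AL than in AL by 0.74 (-1.03 to -0.46), and lower in DR-AL than in DR by 1.18 (-1.46 to -0.90). The rise with DR was not called with DESeq size factors (0.25) or TMM factors (0.22), and both falls were called with each. Sirt3 stood at 25.8 CPM in AL, 18.1 with DR and 19.2 with DR-AL (676, 413 and 525 counts), 0.51 lower in DR than in AL (-0.69 to -0.33) and 0.43 lower in DR-AL than in AL (-0.59 to -0.26). These falls were called with DESeq size factors (-0.70 and -0.76) and TMM factors (-0.73 and -0.90).

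The rises in fat depended on the scaling. Sirt4 stood at 14.8 CPM in AL, 16.0 with DR and 20.3 with DR-AL (387, 365 and 554 counts), which put DR-AL above AL by 0.46 (0.27 to 0.65) and above DR by 0.34 (0.15 to 0.54), but the difference from AL was -0.02 with TMM factors and 0.12 with DESeq size factors, neither called. Sirt6 stood at 9.04, 11.4 and 11.5 CPM (237, 259 and 315 counts), with DR above AL by 0.33 (0.07 to 0.59) and DR-AL above AL by 0.35 (0.10 to 0.60), and neither was called with those factors, where the second turned to -0.12 with TMM. Sirt1 (28.2, 26.0 and 31.0 CPM), Sirt2 (90.1, 101.8 and 107.6 CPM) and the Sirt7 locus (165.7, 135.9 and 152.9 CPM) were called in no fat comparison with library totals. The Sirt7 locus was lower in DR and in DR-AL than in AL, and called, with DESeq size factors and with TMM factors, and Sirt1 was with TMM factors. Of the members, 3 of 7 were called between DR and AL where 45.6% of genes were, 4 between DR-AL and AL where 57.9% were, and 2 between DR-AL and DR where 51.6% were. The median of the 17306 fat genes that averaged 10 counts or more was itself shifted, by 0.24, 0.34 and 0.24 in the 3 comparisons, and by no more than 0.09 in size with DESeq size factors and 0.13 with TMM factors, and the liver and germ cell markers given above moved along the same 3 libraries.

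No sirtuin was called by the Z test on counts between any diets in colon, hypothalamus or hippocampus. The percent of all genes called was 19.7 between DR and AL, 14.3 between DR-AL and AL and 14.5 between DR-AL and DR in colon, 7.05, 15.1 and 9.62 in hypothalamus, and 4.03, 6.15 and 4.88 in hippocampus. The widest ratio of a member in these tissues was 0.33 for Sirt4 in hippocampus between DR-AL and AL (186 and 145 counts in AL and DR-AL, interval 0.00 to 0.65). Sirt1 in hypothalamus stood at 22.7 CPM in AL, 26.6 with DR and 22.1 with DR-AL, with DR above AL by 0.23 (0.08 to 0.38). Sirt6 in hypothalamus stood at 19.1, 16.3 and 15.5 CPM, with DR-AL below AL by 0.30 (-0.48 to -0.12). Both intervals excluded equal levels, yet the ratios were smaller than a call requires. In colon the widest ratio was 0.30 for Sirt4 between DR-AL and DR (-0.01 to 0.61), and Sirt3 stood at 16.2 CPM in AL, 13.4 with DR and 14.97 with DR-AL, with a ratio of DR to AL of -0.27 (-0.46 to -0.08).

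No diet effect shared by the tissues was found for any sirtuin. The edgeR fit with tissue and diet called 0 of 7 members between DR and AL, 0 between DR-AL and AL, and 0 between DR-AL and DR, as it called 0.0114%, 0.00572% and 0.0114% of the 17476 genes. No member reached an unadjusted p of 0.05 in any of the 3 comparisons, where 657, 862 and 656 genes did. DESeq2 called 0 members too, and 12, 8 and 9 genes. The smallest unadjusted p was that of Sirt3 (0.0774), lower in DR than in AL by 0.23 ± 0.12 on the log2 scale (± SE, adjusted p = 0.9996). With 5 tissues that come from the same pools, this test had 8 residual degrees of freedom.

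Of the genes around the family, most of those that make NAD+ by salvage, from nicotinamide or nicotinamide riboside, stood lower in the refed liver. Of the 6 salvage genes, 0 were higher and 5 lower in DR-AL than in AL, where all liver genes split into 2619 higher and 2756 lower (30.9% called). Against DR, 0 were higher and 6 lower (5 with DESeq size factors or TMM factors), where all liver genes split into 2940 higher and 4171 lower (3641 and 3482 with DESeq size factors). Nmnat2 (14, 9 and 2 counts in AL, DR and DR-AL) and Nmrk2 (0, 9 and 1 counts), named for their low counts after these were seen, rest on few reads. The median of the 4 salvage genes that averaged 10 counts or more was -0.66 against AL and -0.59 against DR. Nampt, the rate-limiting enzyme of salvage from nicotinamide, had 2761 counts in AL liver, 1964 with DR and 1697 with DR-AL, and was lower in DR-AL than in AL by 0.69 on the log2 scale. Nmrk1, a nicotinamide riboside kinase, had 835, 722 and 471 counts, lower by 0.81. The nuclear and mitochondrial enzymes of the last step of NAD+ synthesis, Nmnat1 (273, 239 and 175 counts) and Nmnat3 (186, 156 and 118 counts) were lower by 0.63 and 0.64. Nnmt, which methylates nicotinamide and so removes it from salvage, went the other way in liver, with 4653, 2964 and 11564 counts and a rise of 1.33 in DR-AL over AL. Of the 2 genes listed for nicotinamide clearance, Nnmt was called higher and Aox1 lower, in DR-AL against AL and against DR alike.

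Of the nuclear and cytosolic proteins that sirtuins deacetylate, 3 of 14 genes were higher and 0 lower in DR than in AL liver, 0 higher and 7 lower in DR-AL than in AL, and 1 higher and 8 lower in DR-AL than in DR. All liver genes were called at 28.0%, 30.9% and 40.8% in these comparisons. With DESeq size factors or TMM factors the first of these counts was 3 higher and 3 lower, and the last 1 and 7. Srebf1, the lipogenic transcription factor, had 1553 counts in AL liver, 5659 with DR and 454 with DR-AL, and Acss2, the cytosolic acetyl-CoA synthetase, had 2045, 7177 and 1438. Both were far higher in the DR library than in the others, and fat showed the same order for DR against AL, with 5873 and 16788 counts of Srebf1 and 1937 and 13295 of Acss2. Foxo3, a stress-response transcription factor, had 1196, 1207 and 723 counts in liver. Of the zinc-dependent deacetylases, which do not use NAD+, 0 of 11 were higher and 7 lower in DR-AL than in DR liver, with a median of -0.38 (0 higher and 5 lower with DESeq size factors or TMM factors).

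Genes for mitochondrial proteins that Sirt3, Sirt4 and Sirt5 act on were mostly lower in the DR-AL fat library, where Sirt5 was lowest. With library totals Sirt4 was highest there (20.3 CPM), and Sirt3 (19.2 CPM) was below AL (25.8) but not below DR (18.1). The Sirt4 rise was not called with DESeq size factors or TMM factors. Of 20 genes, 0 were higher and 16 lower in DR-AL than in AL fat (median -0.62), and 1 was higher and 15 lower in DR-AL than in DR (median -0.71), while all fat genes split into 9384 higher and 2418 lower, and 7816 higher and 2701 lower (6817 and 5029, and 6434 and 3788, with DESeq size factors). Adipocyte markers were lower in the same library, 5 of 7 against AL with a median of -0.73, and 4 of 7 against DR with a median of -0.44 (1 higher), while all 7 germ cell markers were higher in both comparisons, and their part in these values was not tested. Pdha1, a subunit of pyruvate dehydrogenase, had 9217 counts in AL fat, 20719 with DR and 5150 with DR-AL, and Dlat, another subunit, fell from 4498 in DR to 2208 in DR-AL. The urea cycle genes Cps1 (27547, 108 and 23 counts) and Otc (2099, 13 and 1 counts), both known for liver expression, were high in AL fat, as the liver markers were. The genes that make NAD+ from tryptophan fell in fat, with 8 of 9 lower and 1 higher in DR than in AL, and Tdo2, its first liver enzyme, had 9166 counts in AL fat, 98 with DR and 51 with DR-AL, again with the liver markers.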

How the data were processed

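Each of the 15 RNA-seq libraries was made from RNA combined from 5 mice. The deposited table gives raw counts per locus and FPKM, both made by the authors. The submitters' notes name mm9 and the methods mm10, and no coordinate of the table was used. Its columns were matched to the 15 samples by name, with 0 columns left over. Loci without a gene name (0.258% to 1.39% of counts) were left out.

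The members and the gene lists were chosen with earlier results of these data known. Counts were scaled to CPM or, within a tissue, to equal totals, with a pseudocount of 0.5 in log2 ratios. The Z test compared square roots of count shares with Poisson variance, adjusted by Benjamini-Hochberg over genes with at least 1 count in the tissue. edgeR 4.0.16 (quasi-likelihood, TMM, filterByExpr; tissue and diet as terms) and DESeq2 1.42.0 ran in R 4.3.3, and the rest in Python 3.11.15 with scipy 1.17.1. Scripts were tested on simulated data. The text names all 7 members, for each list up to 4 called genes per tissue and comparison with the largest change and a mean of at least 100 counts, and the 3 genes most correlated with each member. Values with fewer counts are less precise, as the intervals show. No p is given for 1 library against 1. Some list genes and correlated genes are not reported here.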

Additional observations from a re-analysis of the deposited data

Results flagged for a closer look

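Sirt4 was called in opposite directions in fat and liver. Between DR-AL and AL the log2 ratio was 0.46 in fat (387 counts in AL, 554 in DR-AL) and -0.67 in liver (205 and 127 counts). Between DR-AL and DR it was 0.34 in fat and -0.76 in liver. Each side is 1 library, and the difference between the tissues was not tested. The liver values were called with DESeq size factors (-0.65 and -0.66) and TMM factors (-0.66 and -0.66). The fat values were not called with either, at 0.12 and 0.19 with DESeq size factors and -0.02 and 0.09 with TMM factors, and the germ cell markers in fat moved between the same libraries, a relation whose part in the Sirt4 values was not tested.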

How the results depend on the processing

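Each diet within a tissue is 1 library, so that member calls are limited by the missing spread between pools. A fold of at least 2 left 0 of the 5 calls between DR and AL, 0 of the 6 between DR-AL and AL and 2 of the 7 between DR-AL and DR. An assumed coefficient of variation of 0.1 between pools left 0, 1 and 5, and the dispersion estimated from the 3 libraries left 0 in each. In liver between DR-AL and DR, these 3 settings called 938 higher and 1644 lower, 1589 and 2374, and 71 and 94 of 17408 genes. The coefficient of 0.1 left Sirt5 in fat between DR-AL and AL, where it called 7277 higher and 1639 lower of 20382 genes. It left Sirt5 in fat between DR-AL and DR too, where it called 5542 higher and 1663 lower. In fat between DR and AL the estimated dispersion called 0 higher and 2 lower of 20382 genes. It takes the 3 diets as 1 group and so holds any difference between them, and its 0 calls are not particular to the family. The deposited FPKM, with a fold but no test, gave 8, 11 and 12 with a pseudocount of 0.1, and 7, 9 and 12 with a pseudocount of 1. At 0.1 the same fold called 4506 higher and 4045 lower, 4170 and 4738, and 4942 and 5584 of 17408 liver genes. In fat it called 3961 and 11002, 3851 and 13444, and 3452 and 11521 of 20382 genes. Most of the member values are from fat, where the median FPKM ratio of all genes was itself -0.45, -1.18 and -0.58, so that a lower member there is not particular to the family. In hippocampus, FPKM at 0.1 gave Sirt4 higher in DR than in AL, and Sirt1 and Sirt4 higher in DR-AL than in AL. All genes there split into 2056 higher and 1248 lower, and 3267 and 1155, of 18804. In colon it gave Sirt1 higher in DR-AL than in DR, with 3383 higher and 2420 lower of 18242 genes. Without fat, chosen after seeing the data, 2, 2 and 5 remained. The causes of these differences were not tested.

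Single values that were called in at least 1 of the settings compared turned sign as follows, with the pseudocounts 0.1 and 1 in that order for FPKM. Those from fat FPKM carry the shift just given, and values called under neither setting, some of which also turned sign, are not listed. In liver, the Sirt7 locus between DR and AL went to -0.0083 and -0.0082. In fat between DR and AL, FPKM gave Sirt2 -0.63 and -0.61, Sirt4 -0.69 and -0.61, Sirt5 -0.29 and -0.24, and Sirt6 -0.40 and -0.30. In fat between DR-AL and AL, TMM factors gave Sirt1 -0.33, Sirt4 -0.0152 and Sirt6 -0.12, and FPKM gave Sirt1 -1.38 and -1.15, Sirt2 -1.38 and -1.32, Sirt4 -1.18 and -1.01, and Sirt6 -1.15 and -0.80. In fat between DR-AL and DR, FPKM gave Sirt1 -0.72 and -0.58, Sirt2 -0.75 and -0.71, Sirt3 -0.76 and -0.62, Sirt4 -0.49 and -0.41, Sirt6 -0.75 and -0.51, and the Sirt7 locus -0.67 and -0.59.

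The 0 members with a shared diet effect and the 7 differing among tissues were the same counts in every alternative run. Calls between tissue pairs were 46 to 49 of 70 across normalization, filter, diet term, fold minimum and DESeq2, 35 to 41 with 1 diet's libraries left out, 43 with library totals, and 32 of 42 without fat. No paired analysis was possible within a tissue, because each diet there is 1 library of pooled RNA. The tissue term of the fit over all 15 libraries is its only block.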

Other observations

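Across the 15 libraries, the gene whose log2 CPM followed each member most closely, of 16985 single-name genes, was Tbl1x for Sirt1 (Pearson r = 0.985), Dennd1a for Sirt2 (0.994), Tprkb for Sirt3 (0.976), Sfi1 for Sirt4 (0.977), Pyurf for Sirt5 (0.922), Cers4 for Sirt6 (0.986) and Slc26a11 for the Sirt7 locus (0.943). These values mostly follow the tissues, which share pools of mice and totals. With each tissue's mean taken away, the closest genes were Abca9 for Sirt1 (0.892), Otub1 for Sirt2 (0.960), Rapgef4 for Sirt3 (0.934), Znrf1 for Sirt4 (0.953), Olfml1 for Sirt5 (0.971) and Flcn for the Sirt7 locus (0.987). Cyc1, the gene of cytochrome c1, came second for Sirt5 (0.956). Among the members, Sirt4 and the Sirt7 locus moved most alike over the 15 libraries (r = 0.92), and Sirt1 and Sirt3 most oppositely (r = -0.89). With each tissue's mean taken away, these became 0.69 and 0.13, and Sirt2 and Sirt4 were most alike (r = 0.83). All are descriptions of 15 libraries that share tissue, pool and depth.

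Counts in the following lists differed between scalings. Of 5 genes that act on Sirt1 protein or mRNA, 2 were higher and 0 lower in DR than in AL liver (28.0% of all genes called), and 1 and 1 with DESeq size factors or TMM factors. In DR-AL against DR, 1 was lower (Usp22, -0.37, 40.8% of all genes called) and 0 with those factors. Of 9 other enzymes that consume NAD+, 3 were higher and 0 lower in DR-AL than in AL fat (57.9% of all genes called), 2 and 2 with DESeq size factors, and 1 and 4 with TMM factors. Of the 2 genes that make NAD+ from nicotinic acid, Nadsyn1 was at -0.93 between DR-AL and DR liver and Naprt at -0.34, and only 1 of the 2 was called with DESeq size factors or TMM factors.

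Of the zinc-dependent deacetylases, 4 of 11 were higher and 0 lower in DR-AL than in AL fat (57.9% of all genes called), 2 and 2 with DESeq size factors, and 2 and 4 with TMM factors. Hdac6, a cytosolic tubulin deacetylase like Sirt2, had 1287 counts in AL fat, 2928 with DR and 7794 with DR-AL, and Hdac11 had 459, 645 and 1905, while Sirt2 had 2363, 2324 and 2943. Both Hdac genes rose along the libraries in which the germ cell markers rose, from 3.55 to 575 and 2942 CPM in sum, and the part of those cells in the rise was not tested.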
